A study of Mus musculus with 12 samples.

Results

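The transcripts described here are 10 genes that mark endothelial cells, the cells that line blood vessels, lymphatics and the heart chambers. They were taken by gene symbol from a list of junction and identity genes, and all 10 were found among the 18771 genes of the deposited table. They are the junction genes Pecam1, Cdh5, Cldn5 and Esam, the receptor genes Tek, Tie1 and Robo4, and Egfl7, Emcn and Vwf, which encode secreted or surface glycoproteins. RNA sequencing had been done on cells labelled as cardiac fibroblasts, taken from mouse left ventricles 3 days after infarction, caused by permanent closure of the left anterior descending (LAD) artery. The 6 control libraries carried the genotype PDGFRa CreER/+;Pfas fl/+ and the 6 knockout libraries PDGFRa CreER/+;Pfas fl/fl (Pfas CKO). All mice thus carried the inducible Cre recombinase of PDGFRa, a gene of fibroblasts and related mesenchymal cells, and at least 1 floxed allele of Pfas, an enzyme gene of purine synthesis. Tamoxifen, which switches this Cre on, is stated for the Pfas CKO mice, on days 7 and 3 ahead of the infarction and on day 1 following it. For control mice no tamoxifen dosing is given, and an effect of the drug and one of the genotype cannot be told apart if only 1 group was dosed. Strain, age and the number of mice behind a library were not stated either. The p-values thus reflect differences among libraries, which may be technical.

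Endothelial cells hold to each other through VE-cadherin (Cdh5) at adherens junctions, claudin-5 (Cldn5) at tight junctions, and the immunoglobulin-like molecules PECAM-1 (Pecam1) and ESAM (Esam). The angiopoietin receptor TIE2 (Tek) and its partner TIE1 (Tie1) control vessel stability, and ROBO4 (Robo4) is a vascular receptor of the roundabout family. Endothelium is one of the main cell populations of the heart, and its capillaries are remodelled after infarction. The Cre driver named in the labels is a fibroblast gene, so these transcripts belong to a cell type other than the one named by the labels and by the Cre.

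Total estimated counts ranged from 20319949 to 20949974 per library over the genes with a value in every library. A count of 0, with a floor of 3 counts, corresponded to 0.131 to 0.134 CPM (counts scaled by TMM-adjusted library size) for the control libraries and to 0.157 to 0.161 CPM for those of Pfas CKO, counting error alone considered. The libraries fell into sets: control 1 to 3, control 4 to 6, Pfas CKO 1, 3, 5 and 6, and Pfas CKO 2 and Pfas CKO 4 each on its own. Mean chi-square per gene, where sampling noise alone gives 1, was 1.68 to 5.22 between libraries of a set, 17.5 to 39.9 across sets of a group and 169 to 253 between groups. Libraries of a set may not be separate animals. For the members and the genes named by rule, calls that were lost when near-identical libraries were summed are named with the genes below. Genes named after their values were seen were not followed in this way. Pfas, the deleted gene, was lower in each Pfas CKO library, at 8.01 to 17.4 CPM against 22.4 to 24.9 CPM in control (log2 fold change -1.05 ± 0.16 (SE), edgeR adjusted p = 2.26e-05). An exact two-sided permutation test gave p = 0.00216, the smallest that 924 permutations allow, but it takes the 12 libraries as independent. With near-identical libraries summed, the Pfas log2 fold change was -0.80 (edgeR adjusted p = 0.0217).

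Each member lies on a different stretch of the mouse genome (GRCm38, GENCODE M21 annotation, all protein-coding). The table gives them the gene IDs 18613 (Pecam1), 12562 (Cdh5), 12741 (Cldn5), 69524 (Esam), 21687 (Tek), 21846 (Tie1), 353156 (Egfl7), 59308 (Emcn), 74144 (Robo4) and 22371 (Vwf). Pecam1 spans 106654217 to 106750628 on chromosome 11 (minus strand), Cdh5 spans 104101625 to 104144511 on chromosome 8 (plus), and Cldn5 spans 18776847 to 18778262 on chromosome 16 (plus). Esam spans 37528078 to 37538319 and Robo4 spans 37401897 to 37415115, both on chromosome 9 (plus), 112962 bases apart with 2 protein-coding genes between them. Tek spans 94739289 to 94874976 (plus) and Tie1 spans 118471191 to 118490061 (minus) on chromosome 4. Egfl7 spans 26580014 to 26593120 on chromosome 2 (plus), Emcn spans 137341067 to 137432185 on chromosome 3 (plus), and Vwf spans 125546774 to 125686679 on chromosome 6 (plus). Cdh5 overlaps the antisense gene Gm29682, and Egfl7 overlaps Agpat2 on the opposite strand and Gm20532 on the same one. No source states whether counting used strand, and reads from these overlaps cannot be told apart. The other 8 members overlap no annotated gene.

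Sequences are shown for 4 members with different behaviour, Cldn5 with the largest rise of the 10, Egfl7 with 3 start sites, and Tek and Emcn, whose groups overlapped. RefSeq (GRCm38.p6) gave a promoter for 6 of the 10 members. The lines hold the bases before each start site, up to 250, that no annotated exon covers. Capitals mark GGAAG on either strand, a form of the core bound by ETS factors, a family that includes the endothelial regulators Erg and Fli1.
Cldn5 (chr16:18776597-18776846, plus strand): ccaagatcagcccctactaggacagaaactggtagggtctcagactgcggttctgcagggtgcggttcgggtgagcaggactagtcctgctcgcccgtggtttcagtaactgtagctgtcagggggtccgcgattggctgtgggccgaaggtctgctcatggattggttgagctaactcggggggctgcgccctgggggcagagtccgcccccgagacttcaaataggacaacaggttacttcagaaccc
Tek (chr4:94739039-94739288, plus strand): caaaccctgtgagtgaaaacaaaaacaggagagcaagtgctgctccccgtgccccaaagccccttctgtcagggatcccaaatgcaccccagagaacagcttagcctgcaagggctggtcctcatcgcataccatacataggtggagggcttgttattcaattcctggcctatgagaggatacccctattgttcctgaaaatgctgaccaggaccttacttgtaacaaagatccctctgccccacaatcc
Emcn (chr3:137340828-137341066, plus strand): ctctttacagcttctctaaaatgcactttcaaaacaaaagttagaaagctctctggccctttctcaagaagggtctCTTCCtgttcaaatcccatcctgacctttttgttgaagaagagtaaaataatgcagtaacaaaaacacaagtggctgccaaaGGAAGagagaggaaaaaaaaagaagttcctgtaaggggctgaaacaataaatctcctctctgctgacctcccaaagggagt
Egfl7 upstream start (chr2:26580833-26581055, plus strand): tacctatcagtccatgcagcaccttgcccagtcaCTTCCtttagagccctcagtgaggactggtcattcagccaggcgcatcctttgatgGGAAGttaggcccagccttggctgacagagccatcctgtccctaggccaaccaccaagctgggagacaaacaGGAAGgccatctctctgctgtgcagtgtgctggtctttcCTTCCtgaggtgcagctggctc
Egfl7 middle start (chr2:26583615-26583863, plus strand): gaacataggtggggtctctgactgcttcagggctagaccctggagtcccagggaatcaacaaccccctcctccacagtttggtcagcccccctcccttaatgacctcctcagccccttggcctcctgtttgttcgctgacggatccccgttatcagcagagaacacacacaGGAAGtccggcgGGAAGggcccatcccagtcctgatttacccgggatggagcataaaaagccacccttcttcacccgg
Egfl7 downstream start (chr2:26586386-26586629, plus strand): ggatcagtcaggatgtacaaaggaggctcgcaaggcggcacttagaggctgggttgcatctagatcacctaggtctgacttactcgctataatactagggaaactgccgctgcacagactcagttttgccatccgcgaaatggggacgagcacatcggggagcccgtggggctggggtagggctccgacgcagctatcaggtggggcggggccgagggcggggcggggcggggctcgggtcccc
This motif was searched on both strands and occurred 4 times before the upstream Egfl7 start, 2 times before the middle one, 2 times before Emcn and 0 times in the lines of Cldn5, Tek and the downstream Egfl7 start. It occurs in 64.1% of the 32851 RefSeq windows of 250 bases, so its presence does not set these genes apart. The SOX motif ACAAAG, on either strand, was in the lines of Tek and of the downstream Egfl7 start, and 16.5% of all windows hold it. These are matches of letters, not sites shown to be bound. Egfl7 also hosts Mir126a, an endothelial microRNA gene, which lies in an intron of 8 of its 19 annotated transcripts and in an exon of 1. Its mature 3p arm is shown with the seed, bases 2 to 8, in capitals, because it is read from the same locus as Egfl7; poly(A) libraries of this kind do not measure the mature form.
mmu-miR-126a-3p: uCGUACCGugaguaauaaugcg

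Of the 10 members, 9 were higher and 1 was lower in Pfas CKO (edgeR quasi-likelihood test, adjusted p under 0.05 over all 13600 genes tested). Over all genes 68.6% were called, 33.4% higher and 35.2% lower, so a call alone is common in these data. All 10 passed the filter on low counts. The median log2 fold change of the members was 0.66, against -0.02 for all genes tested. In 7 members every Pfas CKO library lay above every control library, and in Vwf every one lay below, while Tek and Emcn overlapped. Groups that do not overlap were found for 23.2% of all genes on the higher side and 23.9% on the lower. Summed over the 10 genes, the CPM was 579 to 608 (median 596) in control libraries, against 790.2 to 963 (median 932) for Pfas CKO, and the groups did not overlap. In bulk RNA, more cells of a type and more RNA per cell cannot be told apart.

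**Figure D1:**
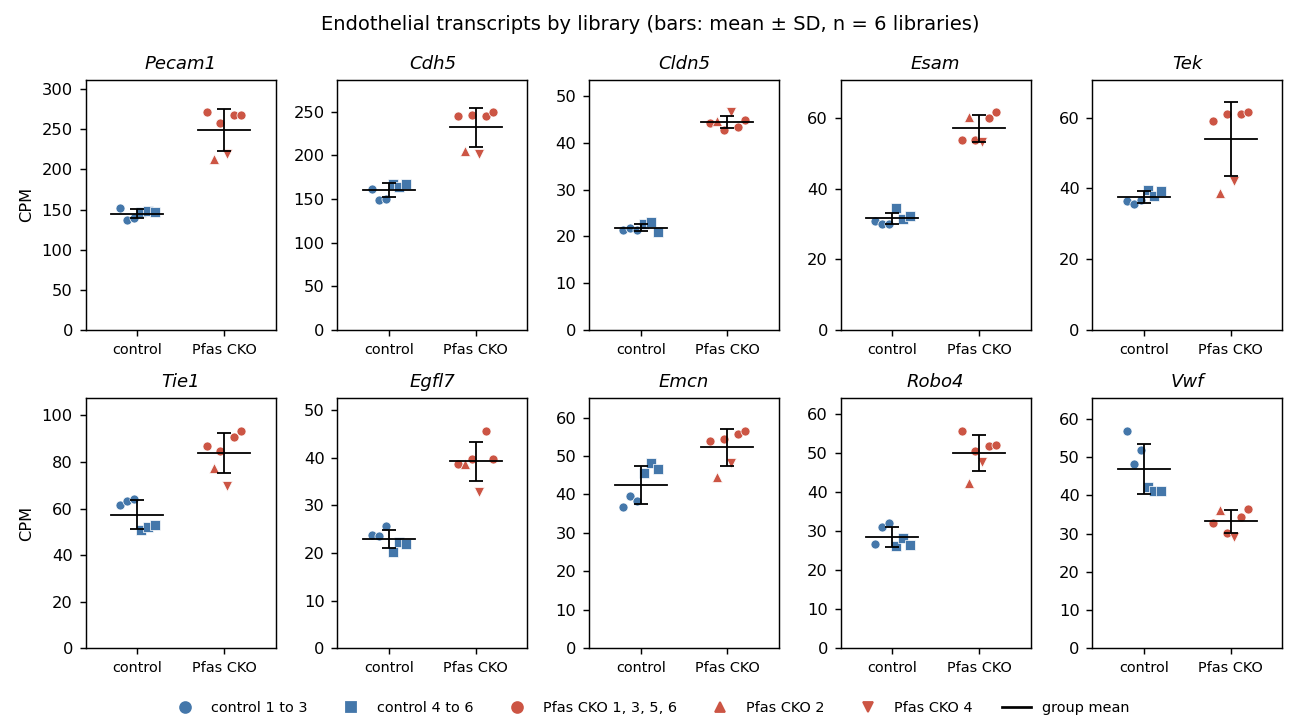
CPM (TMM-scaled counts, vertical axes from 0) of the 10 endothelial transcripts in each of 6 control (blue) and 6 Pfas CKO (red) libraries, with marker shapes for the sets of near-identical libraries and bars for the mean ± SD. The Pfas CKO mean is higher in 9 panels and lower in that of Vwf; in Tek and Emcn the libraries Pfas CKO 2 and 4 reach the control range or lie just above it.

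The junction genes rose in each Pfas CKO library. Pecam1, whose protein joins endothelial neighbours and is also carried by platelets and leukocytes, ranged from 137 to 152 CPM in control (median 147) and from 213 to 271 CPM in Pfas CKO (median 263). The lowest Pfas CKO libraries were 2 and 4, at 213 and 219 CPM respectively, and both still lay above all controls. The log2 fold change was 0.78 ± 0.07 (SE), or 1.72-fold, with an edgeR adjusted p of 5.63e-08. Cdh5, the VE-cadherin gene, whose expression is largely restricted to endothelium, ranged from 149 to 168 CPM in control (median 163) and from 202 to 249 CPM in Pfas CKO (median 245). Again Pfas CKO 2 and 4 were the lowest of their group, at 205 and 202 CPM, and the groups did not overlap. Its log2 fold change was 0.54 ± 0.06 (edgeR adjusted p = 2.62e-06). Cdh5 thus rose less than Pecam1, and the ratio of Pecam1 to Cdh5 counts, which needs no scaling between libraries, was 0.876 to 0.945 in control and 1.04 to 1.11 in Pfas CKO.

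Cldn5, a tight junction strand protein, had the tightest values of the 10. It ranged from 21.0 to 23.1 CPM in control (median 21.6) and from 42.8 to 46.6 CPM in Pfas CKO (median 44.5). Pfas CKO 2 and 4, low in Pecam1 and Cdh5, were not low here, at 44.6 and 46.6 CPM. The mean rose from 21.9 ± 0.813 to 44.4 ± 1.31 CPM (SD, n = 6 each), a log2 fold change of 1.02 ± 0.04 (2.03-fold, edgeR adjusted p = 2.79e-11). Esam, an adhesion molecule of endothelial tight junctions that platelets also carry, ranged from 30.0 to 34.4 CPM in control (median 31.2) and from 53.2 to 61.7 CPM in Pfas CKO (median 56.9). Its log2 fold change was 0.86 ± 0.06 (edgeR adjusted p = 2.50e-09), and Pfas CKO 2, at 60.3 CPM, was among the higher libraries. The count ratios of Cldn5 and Esam to Cdh5 did not overlap between groups either, at 0.125 to 0.146 against 0.174 to 0.231 for Cldn5 and 0.192 to 0.205 against 0.219 to 0.295 for Esam. These ratios were highest in Pfas CKO 2 and 4, the libraries with the least Cdh5 of their group.

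The receptor genes rose as well, but 1 of them unevenly. Robo4, which encodes a receptor that stabilises vessels, ranged from 26.3 to 32.1 CPM in control (median 27.5) and from 42.3 to 55.7 CPM in Pfas CKO (median 51.1), with a log2 fold change of 0.81 ± 0.07 (edgeR adjusted p = 9.32e-08). Tie1, which encodes the receptor partner of TIE2, ranged from 50.8 to 64.2 CPM in control (median 57.3) and from 69.8 to 93.4 CPM in Pfas CKO (median 85.9), with a log2 fold change of 0.55 ± 0.08 (edgeR adjusted p = 2.39e-05). Neither gene overlapped between groups, though control 1 to 3 and control 4 to 6 stood apart in Tie1, at means of 63.0 and 51.9 CPM. Tek, the TIE2 gene, ranged from 35.5 to 39.4 CPM in control (median 37.3) and from 38.8 to 61.5 CPM in Pfas CKO (median 60.0). The 4 near-identical Pfas CKO libraries averaged 60.7 CPM, whereas Pfas CKO 2, at 38.8 CPM, fell within the control range and Pfas CKO 4, at 42.1 CPM, lay just above it. The Tek log2 fold change was 0.52 ± 0.11 (edgeR adjusted p = 0.000495). With near-identical libraries summed it was 0.34 and not called (adjusted p = 0.170), on log2(TPM + 1) it was 0.20 and not called (adjusted p = 0.128), and without Pfas CKO 2 and 4 it was 0.68. Over 25 alternative settings its adjusted p ranged from 6.12e-09 to 0.170.

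Egfl7, a secreted protein laid down by endothelial cells, ranged from 20.2 to 25.7 CPM in control (median 23.0) and from 32.8 to 45.7 CPM in Pfas CKO (median 39.3). Its log2 fold change was 0.78 ± 0.08 (edgeR adjusted p = 2.62e-07), with no overlap between the groups. Emcn encodes endomucin, a sialomucin of capillary and venous endothelium. It ranged from 36.8 to 48.2 CPM in control (median 42.6) and from 44.6 to 56.5 CPM in Pfas CKO (median 54.2), so the groups overlapped. Its log2 fold change of 0.30 ± 0.08 (edgeR adjusted p = 0.00386) was the smallest rise of the 9. The call was lost with library totals alone (log2 fold change 0.07, adjusted p = 0.439), on log2(TPM + 1) (0.02, adjusted p = 0.839), against control 4 to 6 alone (0.15, adjusted p = 0.0939) and with near-identical libraries summed (0.22, adjusted p = 0.254). Its adjusted p ranged from 0.000294 to 0.840 over 25 settings.

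Vwf went the other way. It encodes von Willebrand factor, the haemostatic glycoprotein that endothelial cells store in Weibel-Palade bodies and that megakaryocytes also make. It ranged from 41.1 to 56.9 CPM in control (median 45.2) and from 29.1 to 36.5 CPM in Pfas CKO (median 33.5), with no overlap. The mean fell from 46.9 ± 6.52 to 33.2 ± 3.11 CPM (SD, n = 6 each), a log2 fold change of -0.50 ± 0.09 (edgeR adjusted p = 0.000130). Control 1 to 3 averaged 52.3 CPM and control 4 to 6 averaged 41.5 CPM, so the size of the fall depended on the controls: it was -0.66 against control 1 to 3 and -0.33 against control 4 to 6 (adjusted p = 2.29e-05 and 0.00268). Per Cdh5 count the change was larger, with a Vwf to Cdh5 ratio of 0.245 to 0.353 in control and 0.122 to 0.177 in Pfas CKO. Vwf was called lower under each of the 25 alternative settings that kept the threshold of 0.05 without a minimum fold, with an adjusted p from 1.04e-06 to 0.0197.

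**Figure D2:**
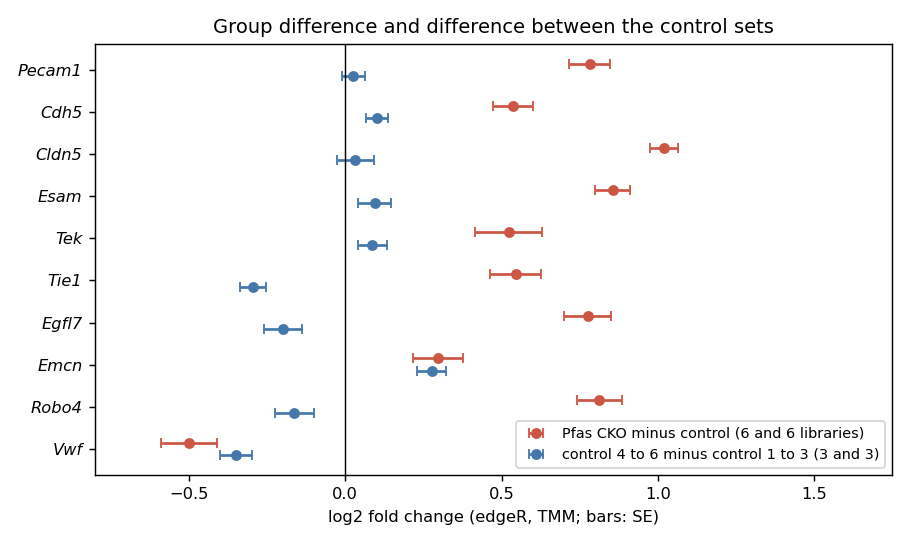
Log2 fold change with its SE (horizontal axis) for each member between Pfas CKO and control (red, 6 and 6 libraries) and between control 4 to 6 and control 1 to 3 (blue, 3 and 3 libraries). The red points run from -0.50 (Vwf) to 1.02 (Cldn5); the blue ones run from -0.35 (Vwf) to 0.28 (Emcn), and for Emcn both are nearly equal.

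The control sets were compared to learn how far these genes differ within a genotype. Between control 4 to 6 and control 1 to 3, 45.5% of 13727 genes were called, 23.5% higher and 22% lower. Of the members, 2 were higher and 4 lower there (edgeR). Cdh5 differed by 0.10 (adjusted p = 0.0229) and Emcn by 0.28 (adjusted p = 3.16e-05), both higher in control 4 to 6. Tie1, Vwf, Egfl7 and Robo4 fell by 0.30, 0.35, 0.20 and 0.16 (adjusted p = 2.44e-06, 7.12e-06, 0.0101 and 0.0382). Pecam1, Cldn5, Esam and Tek did not pass, with values of 0.03, 0.03, 0.09 and 0.09. For Emcn the difference between control sets was thus almost as large as that between groups (0.28 against 0.30), and for Vwf it was 0.35 against 0.50 in size. For Cldn5 it was 0.03 against 1.02. The 2 comparisons share the control libraries. Each side of the comparison within control is 1 set of near-identical libraries. Its p-values thus rest on the spread within a set, and they may not measure differences between animals.

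**Figure D3:**
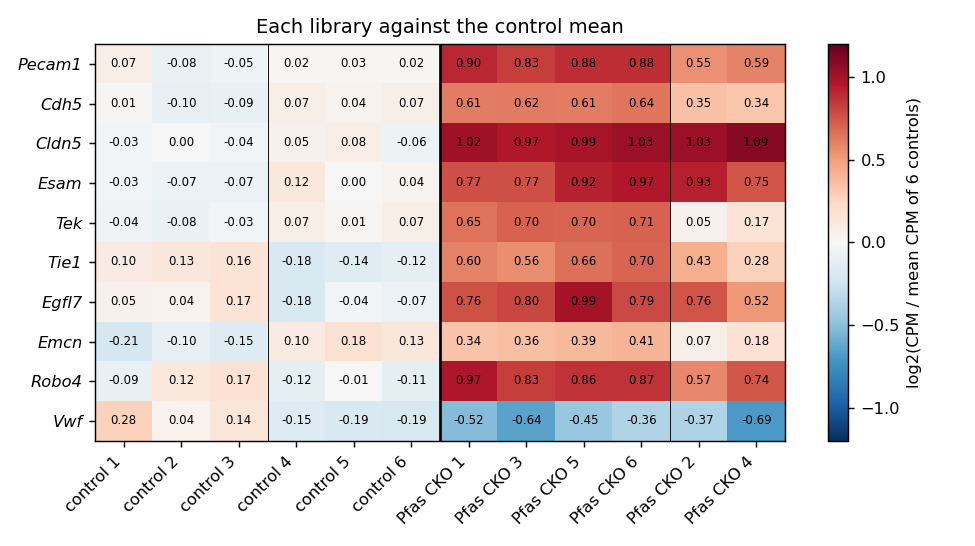
Log2 ratio of each library's CPM to the mean CPM of the 6 controls (colour scale and printed values), members in rows and libraries in columns, with lines between groups and sets. The columns of Pfas CKO 2 and 4 are paler than those of Pfas CKO 1, 3, 5 and 6 in Pecam1, Cdh5, Tek, Tie1, Emcn and Robo4, but not in Cldn5.

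The Pfas CKO libraries were not alike in these transcripts. The median over members of the log2 difference from the control mean was 0.71 to 0.78 in Pfas CKO 1, 3, 5 and 6, and it was 0.50 in Pfas CKO 2 and 0.43 in Pfas CKO 4. In Tek the difference was 0.65 to 0.71 in the 4 libraries and 0.05 and 0.17 in the other two. In Cldn5 it was 0.97 to 1.03 in the 4 and 1.03 and 1.09 in the other two. Pfas itself was also highest in these libraries of the group, with 17.4 CPM for Pfas CKO 2 and 14.5 CPM for Pfas CKO 4. They also stood apart in other markers. Summed fibroblast markers were 15007 and 16199 CPM in Pfas CKO 2 and 4, against 12842 to 13083 CPM in the 4. Between groups 5 of 9 fibroblast markers were higher and 4 lower in Pfas CKO, so the sum does not stand for each marker. Summed macrophage and monocyte markers were 5354 and 4618 CPM in Pfas CKO 2 and 4, against 5897 to 6370 CPM in the 4. Summed neutrophil markers were 211 and 179 CPM, against 127 to 132 CPM. A link between these differences was not tested. Without Pfas CKO 2 and 4 the median log2 fold change of the members was 0.75 and all 10 calls were made in the same directions. Of all genes, 4617 were then called higher and 5141 lower, with a median of -0.04, so calls were common there too.

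Levels between genes were compared on TPM, the deposited values per transcript length. In control the order of mean TPM was Pecam1 (107), Cdh5 (96.2), Emcn (71.6), Esam (41.4), Egfl7 (41.4), Cldn5 (37.9), Tie1 (35.6), Robo4 (19.8), Tek (19.2) and Vwf (12.8). In Pfas CKO it was Pecam1 (151), Cdh5 (115), Emcn (72.6), Cldn5 (63.1), Esam (61.5), Egfl7 (58.2), Tie1 (42.6), Robo4 (27.4), Tek (22.5) and Vwf (7.34). Neighbours whose libraries overlapped were Esam, Egfl7, Cldn5 and Tie1 in control, Emcn, Cldn5, Esam and Egfl7 in Pfas CKO, and Robo4 and Tek in both. The order was thus the same in both groups except that Cldn5 moved ahead of Esam and Egfl7. As a share of the summed TPM of the 10 genes, Cldn5 was 7.45% to 8.11% in control and 9.32% to 11.9% in Pfas CKO. The Vwf share was 2.26% to 3.19% in control and 1.06% to 1.43% in Pfas CKO, and the median share of Emcn was 15.01% and 11.8%. Only these 3 shares did not overlap between the groups, and they were not tested.

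Scaling moved all members together. With library totals alone the median of all genes shifted from -0.02 to -0.26, and that of the members from 0.66 to 0.43. All genes called higher and lower then numbered 2775 and 7202, against 4545 and 4785 with TMM. The members' median exceeded that of all genes by 0.68 with TMM, 0.68 with library totals and 0.63 on log2(TPM + 1). Library scaling shifts all genes by nearly the same amount, so the gaps with TMM and with library totals were bound to be nearly equal. All 10 directions were the same under each scaling.

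**Figure D4:**
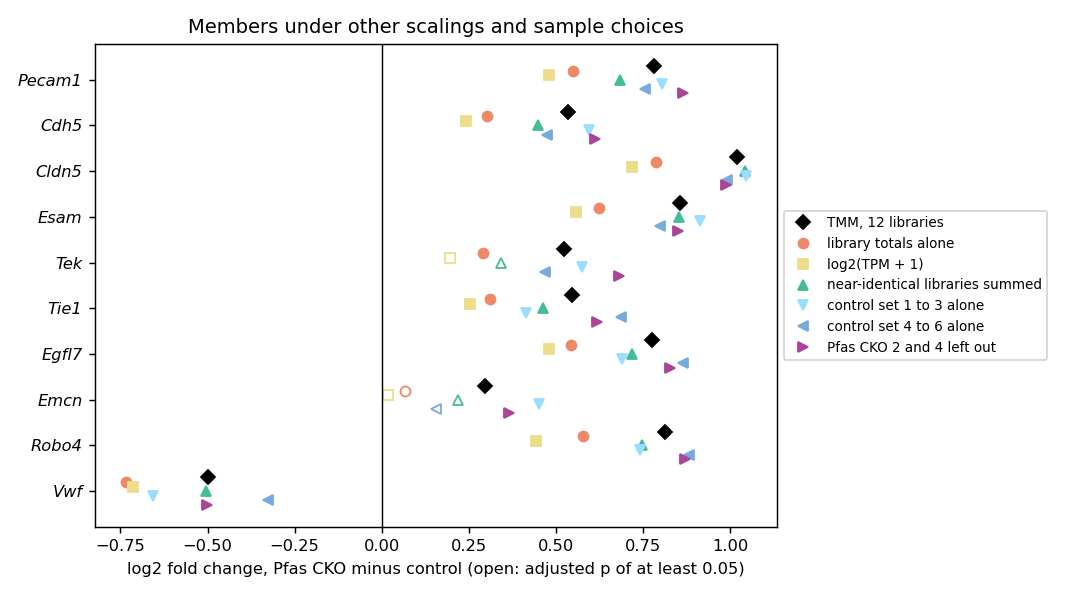
Log2 fold change, Pfas CKO minus control (horizontal axis), of each member with TMM scaling and 12 libraries (black) and under 6 other scalings or choices of libraries; open symbols mark an adjusted p of at least 0.05. Open symbols occur in Tek and Emcn, and no symbol crosses 0.

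Other endothelial genes were examined with 78 genes in 8 lists, of which 75 were tested, 48 rose and 14 fell, with a median of 0.56. With near-identical libraries summed 39 were higher and 10 lower, with library totals alone 42 and 18, and on log2(TPM + 1) 39 and 19. The background of 33.4% higher and 35.2% lower belongs to the TMM fit. Over all genes, calls higher and lower numbered 2783 and 2877 with near-identical libraries summed. They numbered 2775 and 7202 with library totals alone, and 2279 and 7280 on log2(TPM + 1). The general endothelial genes of surface and signalling had 17 higher and 5 lower of 25, with a median of 0.56. Rasip1, needed for vessel lumens, rose from 15.7 ± 1.69 to 44.9 ± 3.06 CPM, and Calcrl, a receptor for adrenomedullin, from 41.7 ± 6.37 to 145 ± 22.9 CPM (SD, n = 6 each; edgeR adjusted p = 7.62e-11 and 3.21e-09). Cd93, a lectin-like receptor that myeloid cells also carry, fell from 510 ± 19.2 to 293 ± 27.2 CPM (edgeR adjusted p = 1.44e-08). Kdr, the main VEGF receptor, was named after its values were seen: it fell from 219 ± 4.71 to 133 ± 30.2 CPM (edgeR adjusted p = 8.69e-05). With near-identical libraries summed, 11 of this list were higher.

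Among 13 endothelial transcription factors, 8 rose and 2 fell, with a median of 0.58. Their shares were 61.5% and 15.4%, against 33.4% and 35.2% over all genes tested. Bcl6b, a repressor of endothelial cells, rose from 22.7 ± 1.51 to 44.8 ± 2.94 CPM and Ets1, also a lymphocyte and mesenchymal factor, from 259 ± 16.0 to 445 ± 27.4 CPM (edgeR adjusted p = 1.22e-09 and 7.01e-09). Hhex fell from 7.73 ± 0.439 to 4.06 ± 0.468 CPM (edgeR adjusted p = 1.69e-07). The ETS genes Erg and Fli1, named after their values were seen, moved apart with TMM scaling. Log2 fold changes were 0.35 for Erg and -0.53 for Fli1 (edgeR adjusted p = 0.000200 and 0.000170). On TPM, Erg overlapped between groups, at 23.4 to 26.8 in control and 21.6 to 29.6 in Pfas CKO (means 25.0 and 26.3). The calls of Erg and Fli1 were not followed through the alternative settings. Fli1 is also a gene of blood cells.

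The subtype lists were less even, and all genes tested stood at 33.4% higher and 35.2% lower. Of 9 capillary genes of the heart 8 rose and 0 fell, with a median of 1.28. That median is the value of Car4, which rests on 13 to 46 counts per library, and Timp4 rests on 5 to 39. Over 25 settings 5 to 9 of the list were higher. Gpihbp1, the capillary anchor of lipoprotein lipase, rose from 4.85 ± 0.690 to 22.3 ± 2.85 CPM, and Aqp1, a water channel, from 38.5 ± 1.68 to 72.6 ± 6.94 CPM (edgeR adjusted p = 9.82e-11 and 6.34e-09). Between the control sets 8 of these genes were tested, with 5 called higher in control 4 to 6, 0 lower and a median of 0.24. Of all genes, 23.5% were called higher there and 22% lower. Of 6 arterial genes tested 4 rose and 2 fell. Dll4, a Notch ligand, rose from 8.84 ± 0.933 to 24.8 ± 2.95 CPM and Efnb2 from 46.9 ± 1.73 to 67.5 ± 8.54 CPM, while Gja5, a connexin, fell from 4.53 ± 0.437 to 2.90 ± 0.536 CPM (edgeR adjusted p = 1.02e-09, 1.52e-05 and 0.000238). Summing near-identical libraries ended the Gja5 call at an adjusted p of 0.0521, and 24 settings gave 5.38e-06 to 0.0521. It also left 0 arterial genes lower.

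Of 5 venous genes 1 rose and 1 fell, or 20% each, below the 33.4% and 35.2% of all genes tested. Ephb4, the receptor of ephrin-B2, rose from 30.5 ± 2.67 to 44.3 ± 5.83 CPM, and Aplnr, the apelin receptor, fell from 6.08 ± 0.687 to 3.57 ± 0.532 CPM (edgeR adjusted p = 4.96e-05 and 1.98e-05). Ephb4 missed the threshold on summed libraries at an adjusted p of 0.0506, and 25 settings gave 9.71e-09 to 0.0506. Selp, P-selectin, which is stored with von Willebrand factor, was named after its values were seen: it stood at 99.3 ± 4.25 and 98.8 ± 4.66 CPM and did not pass (log2 fold change -0.01). Of 6 lymphatic genes 3 rose and 1 fell (50% and 16.7%). Lyve1, which macrophages also express, rose from 4.55 ± 0.633 to 9.40 ± 1.04 CPM, and the chemokine gene Ccl21a fell from 13.6 ± 1.49 to 4.71 ± 1.17 CPM (edgeR adjusted p = 3.01e-07 and 1.08e-07). Ccl21a has near-identical copies in the mouse genome, so its count is uncertain. Of 4 endocardial genes 2 were tested. Npr3, a natriuretic peptide clearance receptor, fell from 9.16 ± 0.892 to 2.26 ± 1.33 CPM (edgeR adjusted p = 3.32e-06). Nfatc1 was called higher by 0.15 but turned to -0.081 with library totals alone and to -0.14 on log2(TPM + 1), so its direction depended on the scaling. With near-identical libraries summed it was 0.13 and not called (edgeR adjusted p = 0.373; 0.000986 to 0.373 over 25 settings).

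Endothelial activation and sprouting genes had 6 higher and 2 lower of 9, and 6 and 1 with near-identical libraries summed. With all 12 libraries the shares were 66.7% and 22.2%, against 33.4% and 35.2% over all genes tested. The leukocyte adhesion genes Icam1 and Vcam1, which fibroblasts and macrophages also express, rose as well. Icam1 went from 372 ± 11.7 to 1068 ± 59.9 CPM, and Vcam1 averaged 341 ± 29.5 CPM in control against 1117 ± 202 CPM in Pfas CKO (edgeR adjusted p = 5.83e-13 and 2.29e-09). Cxcr4, a chemokine receptor of tip cells and leukocytes, fell from 245 ± 29.2 to 134 ± 5.27 CPM (edgeR adjusted p = 3.53e-08).

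**Figure D5:**
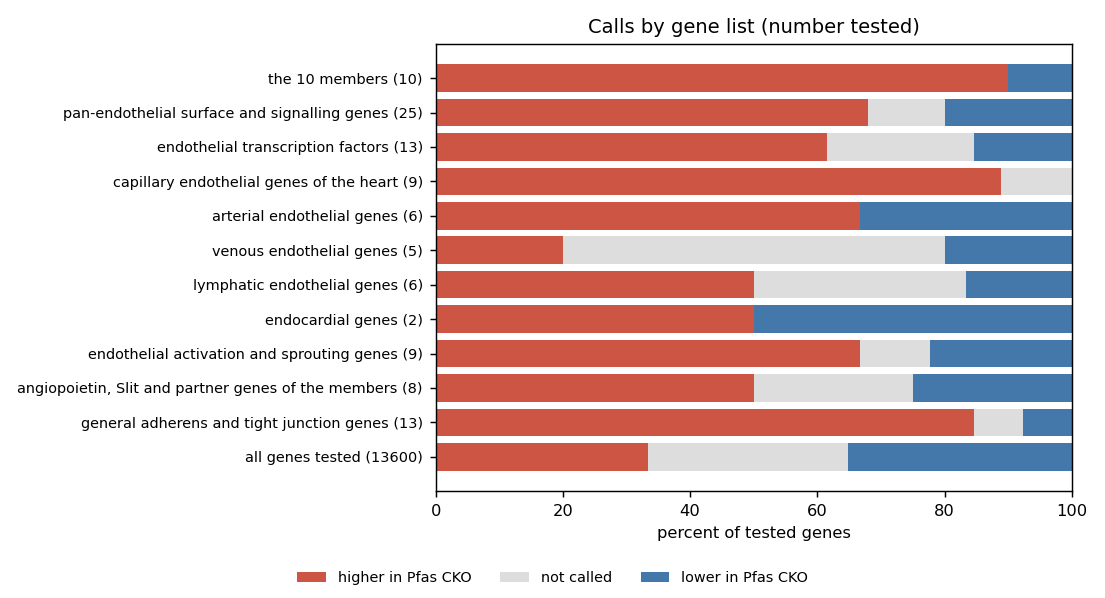
Share of tested genes called higher (red), not called (grey) and called lower (blue) in Pfas CKO for each list, with the number tested in parentheses (horizontal axis in percent). Among the endothelial and partner lists drawn here, the 10 members (90%) and the 9 capillary genes (88.9%) have the largest red shares, and all genes tested are at 33.4% higher and 35.2% lower.

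Ligands and partners of the members were taken as a list of 9, with 8 tested, 4 higher and 2 lower. Their shares were 50% and 25%, against 33.4% and 35.2% over all genes tested. Dok2, an adaptor that binds activated TIE2 and is abundant in blood cells, fell from 15.8 ± 1.92 to 3.32 ± 0.589 CPM. Angpt4, a TIE2 ligand, fell from 2.23 ± 0.368 to 0.601 ± 0.211 CPM, and Slit2, a ligand of the roundabout family, rose from 16.0 ± 0.346 to 22.1 ± 2.22 CPM (SD, n = 6 each; edgeR adjusted p = 1.97e-10, 1.11e-06 and 1.64e-05). On log2(TPM + 1) none of this list was called higher, and Slit2 had an adjusted p of 0.0555, with 5.80e-10 to 0.0575 over 25 settings. The main TIE2 ligands Angpt1 and Angpt2, named after their values were seen, did not pass, at 1.93 ± 0.355 and 2.04 ± 0.294 CPM for Angpt1 and 64.5 ± 3.57 and 59.0 ± 5.77 CPM for Angpt2.

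Adherens and tight junction genes that many cell types share had 11 higher and 1 lower of 13 tested, with a median of 0.56. All genes tested stood at 33.4% higher and 35.2% lower. The list had 7 higher and 2 lower under library totals alone, and 7 and 0 with near-identical libraries summed. F11r, the JAM-A gene, rose from 24.1 ± 2.25 to 47.3 ± 3.07 CPM, and Jup, plakoglobin, from 29.7 ± 1.47 to 59.1 ± 7.49 CPM, while Cgn, cingulin, fell from 0.887 ± 0.281 to 0.504 ± 0.148 CPM (edgeR adjusted p = 4.92e-09, 2.47e-08 and 0.0108). Cgn rests on 5 to 31 counts per library and missed the threshold on summed libraries at an adjusted p of 0.112 and against control 4 to 6 alone at 0.0796, with 0.00190 to 0.112 over 22 settings.

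Markers of other cell types were examined in the same libraries, beside 33.4% higher and 35.2% lower over all genes tested. A count near these shares does not set a list apart. Fibroblast markers were abundant throughout, with sums of 16292 to 19599 CPM in the control libraries against 12842 to 16199 CPM in the knockout ones, with 5 higher and 4 lower of 9. Macrophage and monocyte markers had 4 higher and 5 lower of 12, and their sums overlapped, with 5500 to 6033 CPM and 4618 to 6370 CPM. Platelet markers, which bear on Vwf, Pecam1 and Esam, had 4 higher and 1 lower of 9 tested, with sums of 112 to 137 and 301 to 337 CPM. Over the 9 tested, log2 fold changes ran from -2.06 to 1.64 with a median of 0.09, and 4 were not called. In the 4 higher ones the groups did not overlap. Most of the sum was Pf4, which macrophages also express (107 ± 10.6 and 291 ± 15.2 CPM). Itga2b, 1 of the others, stood at 2.84 ± 0.650 and 2.61 ± 0.481 CPM and does not stand for the list. Pericyte and smooth muscle markers had 5 higher and 1 lower of 9 (sums of 299 to 338 and 363 to 438 CPM). Cardiomyocyte markers were higher in 8 of 8 tested (16.7 to 18.3 and 42.2 to 52.2 CPM), and erythroid ones in 5 of 5 (8.64 to 9.51 and 129 to 211 CPM). Neutrophil markers had 3 higher and 2 lower of 6 tested (226 to 251 and 127 to 211 CPM). Lymphocyte markers had 2 higher and 1 lower of 4 tested (5.21 to 7.23 and 4.75 to 8.06 CPM), and epicardial ones 2 and 2 of 4 (6.69 to 7.62 and 5.54 to 8.78 CPM). No listed marker with a value in every library was at 0 throughout. Their part in the endothelial differences was not tested.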

How the data were processed

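Oligo(dT)-enriched RNA of 12 libraries was sequenced, per the labels' protocols. The submitters' processing notes list Bowtie2, RSEM and DESeq2 for control 4 to 6 and the Pfas CKO libraries, giving neither version nor role, and list no tool for control 1 to 3. The build is GRCm38. Per the file headers, the authors deposited estimated counts per gene, which are not normalized, with TPM and FPKM values scaled within each library. FPKM values were not used.

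Genes with a blank in any library (1067 of 18771) were left out. Rounded estimated counts entered edgeR 4.0.16 (R 4.3.3; TMM, filterByExpr, glmQLFit, glmQLFTest, no covariate besides group), and p-values were adjusted by Benjamini-Hochberg across the 13600 genes tested. SEs are the fold change over the root of F. On simulated data for Pfas CKO against control (13535 genes tested) the test recovered 92.1%, 98.6% and 100% of genes changed 1.5-, 2- and 4-fold, and 5.37% of its calls were unchanged genes. The simulated libraries were independent, which the real sets may not be. Alternatives used limma 3.58.1 and DESeq2 1.42.0. The members, the lists and the sets of near-identical libraries were chosen with earlier results of these data known. Besides the members, Pfas and defining cell type markers, the genes named by rule were the 2 called genes of each list with the smallest p and the 1 with the smallest p in the opposite direction.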

Additional observations from a re-analysis of the deposited data

Results flagged for a closer look

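In 74 combinations of a gene named by rule and a group, 5 had a library far from the other five by Dixon's criterion (gap over range above 0.625), and chance flags about 1 in 20. None was a member. In Pfas CKO 2, Calcrl stood at 101.6 CPM against 142 to 166 CPM in the other libraries of its group, and Ets1 at 391 CPM against 449 to 468 CPM. In Pfas CKO 4, Aqp1 stood at 59.1 CPM against 73.5 to 79.3 CPM. In control 1, Dll4 stood at 10.6 CPM against 7.94 to 8.86 CPM. In control 5, Ccl21a stood at 16.5 CPM against 12.4 to 13.9 CPM.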

How the results depend on the processing

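Over 25 alternatives at the threshold of 0.05, 7 to 9 members were called higher and 1 lower, and no member changed direction; the lost calls were those of Tek (3 alternatives) and Emcn (5). With a fold of at least 2 also required, 1 member was higher and 0 lower, 15 and 2 of the other endothelial genes, and 935 and 851 of all genes. The median of the members was 0.43 with library totals alone, 0.35 on log2(TPM + 1) and 0.36 on log2(TPM + 0.1). All genes called higher and lower numbered 2775 and 7202 with library totals alone, 2279 and 7280 on log2(TPM + 1), 2271 and 7263 on log2(TPM + 0.1), and 2783 and 2877 with near-identical libraries summed. The log2 fold change of Nfatc1 turned to -0.081 with library totals alone and to -0.14 and -0.15 on log2(TPM + 1) and log2(TPM + 0.1); the cause was not tested.

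Between control 4 to 6 and control 1 to 3, 1 member was higher with library totals alone, 1 on log2(TPM + 1) and 1 on log2(TPM + 0.1), and 3 were lower with DESeq2 and 3 with no filter on low counts, against 2 higher and 4 lower in the report. At an adjusted p of 0.01 the counts were 1 and 2, and under the fold limit of 2 they were 0 and 0. Leaving out a library gave 1 to 2 higher and 2 to 4 lower.

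Leaving out a library of either group changed no member's call. Deviations of same-numbered libraries from their group means correlated at -0.04 to 0.17. Controls 1 to 3 all matched Pfas CKO 2 best, and controls 4 and 5 matched Pfas CKO 4. Libraries of a set share their deviations, so this check cannot tell whether the numbers pair the groups. With a replicate block 9 members were higher and 1 lower, 48 and 14 of the other endothelial genes, and 4529 and 4755 of all genes. Each member rests on at least 453 counts in every library. The p-values take libraries as independent, which those of a set may not be.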
